A study of Rattus norvegicus with 6 samples.

Results

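Endothelial genes are genes that the cells lining blood vessels express far more than their neighbours, and 10 of them were followed in the renal cortex of rats given ethylenediamine dihydrochloride: Pecam1, Kdr, Flt1, Cdh5, Tek, Tie1, Emcn, Eng, Vwf and Plvap. They were chosen by name, and a probe counted as theirs when its RefSeq accession belonged to one of these symbols. This gave 16 probes for 9 genes, out of 61515 probes used and 11530 genes tested. No probe matched Vwf, which encodes von Willebrand factor, so it has no value here.

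RNA from renal cortex was hybridised to 1-colour Agilent arrays, 1 rat per array, for 6 males of the Sprague-Dawley stock Crl:CD(SD) that were purchased at 5 weeks of age. The 3 water rats had received water for 4 weeks. The 3 ethylenediamine rats had received ethylenediamine dihydrochloride, a salt of a small diamine, at 500 mg/kg/day for 4 weeks. The tissue was a whole block of cortex, in which endothelial cells are mixed with tubules, glomeruli and other cells, so fewer endothelial cells and less RNA per cell cannot be told apart in any value below.

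Endothelial cells read their surroundings through paired ligand and receptor systems. Kdr and Flt1 encode VEGF receptors 2 and 1, of which Kdr carries most of the growth signal and Flt1 binds VEGF tightly and can act as a trap. Tek encodes Tie2, the receptor of the angiopoietins, and Tie1 encodes its partner receptor. Eng encodes endoglin, a co-receptor for ligands of the BMP and TGF-beta family. Cdh5 (VE-cadherin) and Pecam1 hold neighbouring endothelial cells together, Emcn encodes the surface sialomucin endomucin, and Plvap forms the diaphragms of endothelial openings and caveolae. The kidney is rich in fenestrated capillaries, both in the glomerulus and around the tubules.

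The array files hold no probe letters, and promoters of 6 of the 10 genes (Emcn, Eng, Tie1, Flt1, Kdr and Plvap) were found in RefSeq's table of rat promoters (build GRCr8, 250 bases before to 50 after each gene's start). They were searched on both strands for 3 short words: CCGGAA and CAGGAA, cores bound by ETS factors, the transcription factor family most tied to endothelial genes, and AACAGGAA, which contains CAGGAA and resembles a joint FOX and ETS site. At least 1 of the 6-letter words was found in 4 of these 6 promoters, against 40% of the 33469 promoters in the table. CCGGAA was in 1 of the 6 (Kdr) against 15% of all, CAGGAA in 3 (Emcn, Eng and Plvap) against 29.1%, and AACAGGAA in 1 (Emcn) against 2.58%. A match is a description of the letters and not a site. The 250 bases before the gene start are shown for the 4 genes with a match, to place the words. All 6 genes with a promoter, the unmatched Tie1 and Flt1 included, were lowest on ethylenediamine replicate 3 (below). So were 7 of all 9 measured genes and 20.3% of all genes, and a link to the words was not tested. The printed stretches lie at chr14:32571813-32572062 for Kdr (plus strand), chr16:18231280-18231529 for Plvap (minus strand), chr3:36332029-36332278 for Eng (plus strand) and chr2:228564289-228564538 for Emcn (plus strand). They are written 5′ to 3′ along the gene with the searched words, on either strand, in capitals.
Kdr: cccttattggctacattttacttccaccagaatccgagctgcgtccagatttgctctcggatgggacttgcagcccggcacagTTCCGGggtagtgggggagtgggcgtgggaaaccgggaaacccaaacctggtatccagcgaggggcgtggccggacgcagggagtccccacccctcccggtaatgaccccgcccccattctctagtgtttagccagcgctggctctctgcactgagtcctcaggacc
Plvap: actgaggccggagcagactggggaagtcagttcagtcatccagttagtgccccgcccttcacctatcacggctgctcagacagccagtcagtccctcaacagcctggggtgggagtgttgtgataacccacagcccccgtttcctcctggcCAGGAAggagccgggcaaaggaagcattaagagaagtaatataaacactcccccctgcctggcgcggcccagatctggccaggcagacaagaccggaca
Eng: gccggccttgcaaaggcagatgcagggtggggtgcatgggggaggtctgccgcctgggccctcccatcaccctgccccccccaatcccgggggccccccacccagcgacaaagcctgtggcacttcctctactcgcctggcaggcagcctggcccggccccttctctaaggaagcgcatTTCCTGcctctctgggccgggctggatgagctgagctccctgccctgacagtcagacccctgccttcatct
Emcn: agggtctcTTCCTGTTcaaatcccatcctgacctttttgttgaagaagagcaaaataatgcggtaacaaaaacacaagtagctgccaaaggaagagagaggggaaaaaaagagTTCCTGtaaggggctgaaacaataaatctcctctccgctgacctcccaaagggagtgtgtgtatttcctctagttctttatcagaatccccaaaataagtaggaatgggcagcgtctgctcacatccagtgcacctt

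Positions are counted from the gene start, with negative values before it. In Kdr the printed word lies at -167, and another at 32, past the start, is not shown. The Plvap word lies at -99 and the Eng word at -71. Emcn holds words at -242 and -137, and the one at -242 is the match to AACAGGAA.

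All values below are log2 signals relative to the 75th percentile of their array, so that 0 is a signal at that percentile. A probe was kept when Agilent's flag put it clearly over background throughout a group. All 16 probes met this on all 6 arrays, so none of the 9 genes entered through 1 group alone. The brightest probe stood for each gene, and its level was not set against that of another gene. Ethylenediamine replicates 2 and 3 were on another slide (slide 2) than the other 4 arrays (slide 1), and ethylenediamine replicate 1 had the fewest probes well above background, 35691 against 38930 to 40843 on the other 5. A value within slide 1 therefore compares ethylenediamine replicate 1 alone with the 3 water arrays. Probes well above background on no array had a median of -6.53 on ethylenediamine replicate 1, against -7.55 to -7.23 on the other 5. The lowest signals thus sat higher on that array.

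None of the 9 measured endothelial genes was called different between ethylenediamine and water cortex. By limma, 0 of 9 had an adjusted p under 0.05, and neither did any of the 11530 genes (0%), of which 573 were lower and 621 higher before adjustment (p under 0.05). The smallest adjusted p among the 9 was 0.474, for Tek. Differences were small: the log2 fold changes ran from -0.19 (Tek) to 0.05 (Flt1), with a median of -0.10 beside 0.00 for all genes, and 6 of the 9 lay below 0, against 51.2% of all genes. On the brightest probe the 95% interval of the fold change stayed within 1.5-fold in both directions for 9 of 9 genes, against 79.1% of all genes. It passed 1.5-fold for the dimmer probes of Pecam1, Tek, Plvap and Cdh5, so a larger difference is not excluded on those probes.

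**Figure D1:**
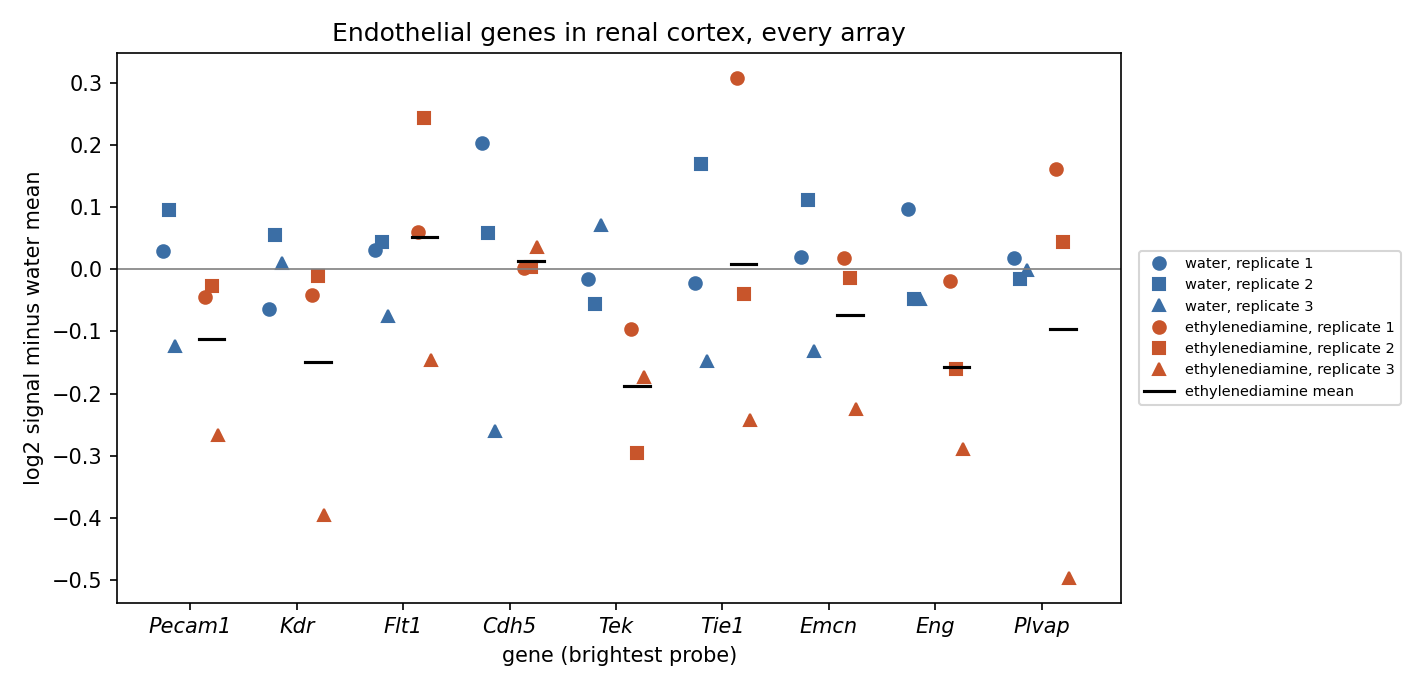
The vertical axis gives the log2 signal of the brightest probe minus the mean of the 3 water arrays, for each of the 9 measured genes, with water arrays in blue, ethylenediamine arrays in orange and a bar at the ethylenediamine mean. The orange triangle, ethylenediamine replicate 3, is the lowest point for 7 of 9 genes, and Tek is the 1 gene whose groups do not overlap.

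Among the receptors, Tek stood lowest relative to water. Its brightest probe read -2.34, -2.38 and -2.25 on water replicates 1 to 3 and -2.42, -2.62 and -2.50 on ethylenediamine replicates 1 to 3. All 3 ethylenediamine arrays were below all 3 water arrays. The means were -2.32 ± 0.07 in water and -2.51 ± 0.10 in ethylenediamine (SD, n = 3 each), a log2 fold change of -0.19 ± 0.07 (SE), which is 0.878-fold with a 95% interval of 0.774 to 0.995. The unadjusted p from the limma fit was 0.0439 and the adjusted p 0.474. Tek was the 1 of 9 genes that lay lower with p under 0.05 before adjustment, where 4.97% of all genes were lower, and 0 of 9 were higher, where 5.39% of all genes were. It was also the 1 of 9 whose groups did not overlap in the lower direction, which 8.27% of all genes showed, against 0 of 9 in the higher direction, which 9.20% of all genes showed. With 1 gene of 9 in each case, neither count sets the group apart.

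The dimmer Tek probe read -4.03, -3.70 and -3.62 on the water arrays and -3.94, -4.10 and -4.58 on the ethylenediamine arrays. Here the groups overlapped, since ethylenediamine replicate 1 lay above water replicate 1, and ethylenediamine replicate 3 was the lowest. Tested as a probe of its own it had a log2 fold change of -0.42 ± 0.19 (SE, limma adjusted p = 0.509). Within slide 1 the brightest Tek probe had a log2 fold change of -0.10 (limma adjusted p = 0.845), and the same with the slide as a block (limma adjusted p = 0.888). Tek kept an unadjusted p under 0.05 under 7 of 19 alternative settings.

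Tie1, the partner of Tek, read -0.74, -0.55 and -0.87 on water replicates 1 to 3 and -0.41, -0.76 and -0.96 on ethylenediamine replicates 1 to 3. The ethylenediamine arrays held both the highest and the lowest value. Its log2 fold change was 0.01 ± 0.16 (SE; 3 rats a group), with an interval of 0.765 to 1.32 on the fold scale and a limma adjusted p of 0.987. The other Tie1 probe stood at -0.09 ± 0.16, so the probes of Tie1 differed in sign, each by less than its error. The sign of the brightest Tie1 probe also turned under 6 of 19 alternative settings, median scaling among them, and within slide 1 its log2 fold change was 0.31 (limma adjusted p = 0.692).

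Kdr, the main VEGF receptor of endothelium, read 4.69, 4.81 and 4.77 on the water arrays and 4.72, 4.75 and 4.36 on the ethylenediamine arrays. Ethylenediamine replicates 1 and 2 lay within the water range and replicate 3 lay 0.40 below the water mean. The log2 fold change was -0.15 ± 0.12 (SE; 0.901-fold, 95% interval 0.740 to 1.10; limma adjusted p = 0.684). It was -0.04 within slide 1 and -0.03 without ethylenediamine replicate 3.

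Flt1, the VEGF-binding receptor that can act as a trap, read -2.02, -2.01 and -2.13 in water and -1.99, -1.81 and -2.20 in ethylenediamine. The highest and the lowest value were again both from ethylenediamine arrays. Its log2 fold change was 0.05 ± 0.11 (SE; 95% interval 0.861 to 1.25 on the fold scale; limma adjusted p = 0.890). The 2 further Flt1 probes had log2 fold changes of 0.13 ± 0.09 and -0.09 ± 0.09, so its probes differed in sign. Without ethylenediamine replicate 2 the brightest probe stood at -0.04.

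Eng, the endoglin gene, read 1.24, 1.10 and 1.10 in water and 1.12, 0.98 and 0.86 in ethylenediamine. Ethylenediamine replicates 2 and 3 were below all water arrays, and replicate 1 was between water replicate 1 and the others. The log2 fold change was -0.16 ± 0.09 (SE; 0.897-fold, 95% interval 0.771 to 1.04; limma adjusted p = 0.596). It was -0.22 without ethylenediamine replicate 1, where its unadjusted p from limma was 0.0416 and the adjusted p 0.351, -0.09 without ethylenediamine replicate 3, and -0.02 within slide 1 (limma adjusted p = 0.980).

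The junction genes gave overlapping groups. Pecam1 read 2.63, 2.70 and 2.48 in water and 2.56, 2.57 and 2.33 in ethylenediamine, with ethylenediamine replicate 3 the lowest and water replicate 3 the next. Its log2 fold change was -0.11 ± 0.10 (SE; 0.925-fold, 95% interval 0.786 to 1.09; limma adjusted p = 0.703), and its dimmer probe stood at -0.16 ± 0.18. The brighter probe stood at -0.04 without ethylenediamine replicate 3 and at -0.04 within slide 1. Pecam1 is also made by platelets and leukocytes. Of 10 leukocyte and platelet genes, 6 were measured, with a median log2 fold change of -0.05 and 0 past an unadjusted p of 0.05 by limma. By that p 4.97% of all genes were lower and 5.39% higher. The part of these cells in Pecam1 was not tested.

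Cdh5, the adhesion molecule of endothelial junctions, had the tightest ethylenediamine values of the 9 genes. It read -1.87, -2.02 and -2.34 in water and -2.07, -2.07 and -2.04 in ethylenediamine, so that all ethylenediamine arrays fell inside the water range. The log2 fold change was 0.01 ± 0.12 (SE; 95% interval 0.819 to 1.24 on the fold scale; limma adjusted p = 0.976), and it was -0.01 under median scaling. The dimmer Cdh5 probe read -3.22, -3.12 and -3.19 in water and -1.84, -3.13 and -3.29 in ethylenediamine. Ethylenediamine replicate 1 stood far above the other 5 arrays on this probe, which lie between -3.29 and -3.12, and the brighter probe did not show this. The log2 fold change of the dimmer probe was accordingly imprecise, at 0.42 ± 0.38 (SE, limma adjusted p = 0.718).

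The capillary surface genes Emcn and Plvap were both lowest on ethylenediamine replicate 3. Plvap read 5.72, 5.69 and 5.70 in water, the narrowest water spread of the 9 genes (SD 0.016), and 5.87, 5.75 and 5.21 in ethylenediamine. Ethylenediamine replicates 1 and 2 were above every water array and replicate 3 was 0.50 below the water mean. The log2 fold change of -0.10 ± 0.17 (SE; 0.935-fold, 95% interval 0.695 to 1.26; limma adjusted p = 0.867) averages over these opposite positions. It was 0.10 without ethylenediamine replicate 3 and 0.16 within slide 1. The dimmer Plvap probe had the same low array, at -0.78 on ethylenediamine replicate 3 against -0.13 to -0.01 on the other 5 arrays. Emcn read 1.86, 1.96 and 1.71 in water and 1.86, 1.83 and 1.62 in ethylenediamine. Its log2 fold change was -0.07 ± 0.10 (SE; 95% interval 0.805 to 1.12 on the fold scale; limma adjusted p = 0.810), and it was 0.00 without ethylenediamine replicate 3.

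**Figure D2:**
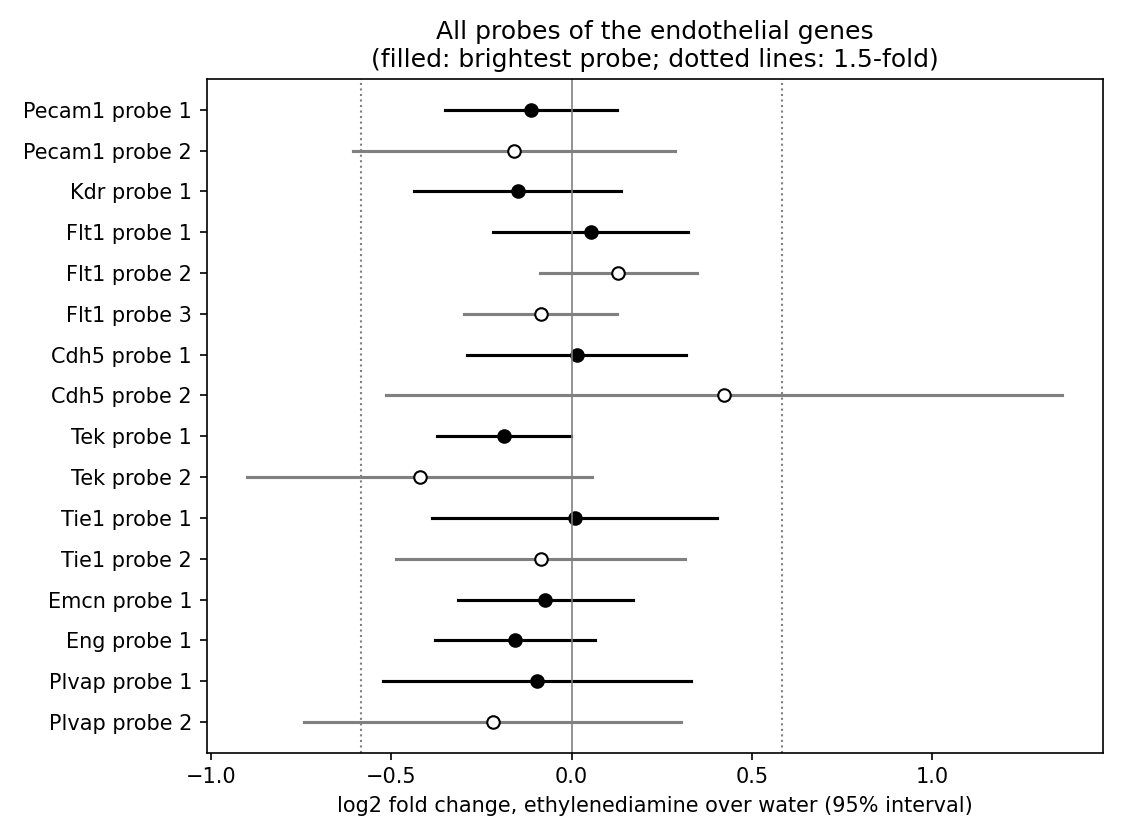
The horizontal axis gives the log2 fold change of ethylenediamine over water with its 95% interval for each of the 16 probes, fitted among all kept probes, with the brightest probe of a gene filled and dotted lines at 1.5-fold. All filled points keep their intervals between the dotted lines. The intervals of the dimmer Pecam1, Tek, Plvap and Cdh5 probes cross a dotted line, and that of the dimmer Cdh5 probe is the widest.

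Over all 16 probes, 11 had a log2 fold change below 0. The 6 genes with more than 1 probe included 2, Flt1 and Tie1, whose probes differed in sign. Of the 7 probes that did not stand for a gene, 5 were below 0.

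Most of the 9 genes were low on ethylenediamine replicate 3, where 8 of 9 lay below their water mean and Cdh5 lay 0.04 above it. This array gave the lowest of the 6 values for 7 of 9 genes, the exceptions being Cdh5 (lowest on water replicate 3) and Tek (lowest on ethylenediamine replicate 2). The same array was lowest for 20.3% of all genes and highest for 19.9% of all genes, while it was highest for 0 of the 9. Of the 7 probes that did not stand for a gene, 5 were lowest there as well. The median of the 9 genes relative to the water mean was -0.24 on ethylenediamine replicate 3, against 0.00 and -0.01 on ethylenediamine replicates 1 and 2 and 0.02, 0.05 and -0.07 on the water arrays. All genes had a median of 0.00 on each of these arrays. Genes measured on 1 array share its RNA and are not independent, so this count describes 1 animal and not the treatment. Without ethylenediamine replicate 3 the median log2 fold change of the 9 genes was 0.00, with 4 of 9 below 0, and within slide 1 it was 0.00 as well, also with 4 of 9 below 0.

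The 5 genes whose 6 values were most like the mean pattern of the 9 were Mylk3, Hlx, Rab11fip2, Zfp949 and Eef2, out of 10921 genes compared. Their Pearson correlations with that pattern over the 6 arrays were 0.987, 0.986, 0.980, 0.979 and 0.977, and Spearman's rho lay between 0.943 and 1. Over these 6 points 122 genes passed 0.9, and how many would do so without any link to the 9 genes was not tested. Over the 5 arrays without ethylenediamine replicate 3 the same 5 genes had Pearson correlations from 0.883 to 0.986. The points share their arrays, and the genes were picked for likeness, so these values only describe which genes follow the same order of arrays.

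The ligands and partners of these receptors came from a list of named genes. Of 16 ligands, 14 were measured, and limma put 2 lower and 0 higher at p under 0.05 before adjustment and 0 after it, where 4.97% of all genes were lower. The median log2 fold change was -0.10. The 2 lower genes were Angpt1 and Vegfd. Angpt1 encodes angiopoietin 1, the activating ligand of the Tek receptor, and read -0.06, -0.33 and -0.37 in water and -0.70, -0.91 and -0.85 in ethylenediamine. All 3 ethylenediamine arrays lay below all 3 water arrays.

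On the log2 scale Angpt1 differed by -0.57 ± 0.11 (SE; 3 rats a group), or 0.672-fold with a 95% interval of 0.561 to 0.806. Its unadjusted p from limma was 0.00185 and its adjusted p 0.329. Its log2 fold change ran from -0.63 to -0.45 over 19 alternative settings, with an unadjusted p under 0.05 in all 19 and an adjusted p from 0.183 to 0.595. The smallest of these differences, -0.45, was that within slide 1. Angpt2, the ligand that can block Tek, had a log2 fold change of -0.13 ± 0.12 on its brightest probe (limma adjusted p = 0.724), with values of -0.34, -0.43 and -0.20 in water and -0.49, -0.24 and -0.65 in ethylenediamine. Its 2 further probes stood at -0.07 ± 0.14 and, for one well above background on 4 of 6 arrays, -0.94 ± 0.37. A difference between the changes of Angpt1 and Tek, or of Angpt1 and Angpt2, was not tested.

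**Figure D3:**
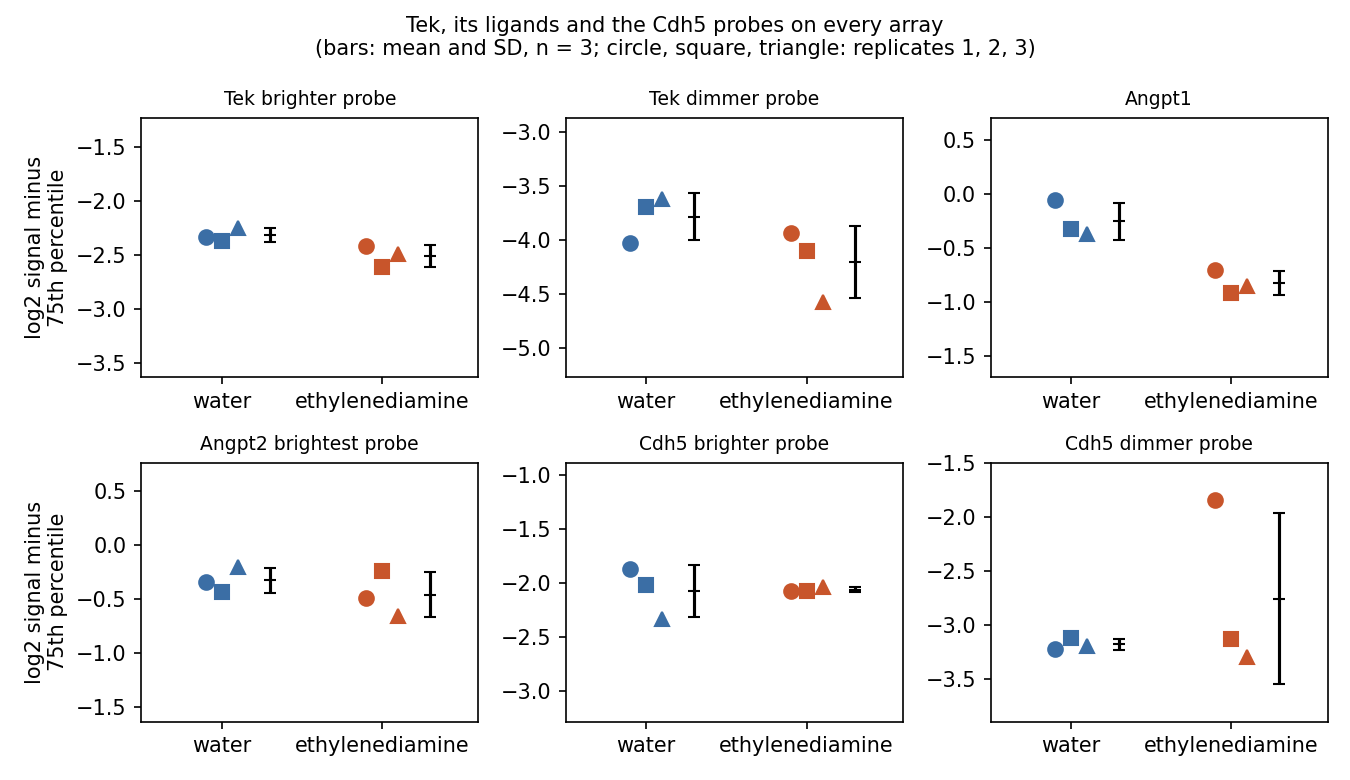
Each panel gives the log2 signal relative to the array's 75th percentile on the 3 water arrays (blue) and 3 ethylenediamine arrays (orange), with the mean and SD as a black bar; all panels span the same number of log2 units. Angpt1 and the brighter Tek probe have groups that do not overlap, and 1 ethylenediamine array stands apart on the dimmer Cdh5 probe alone.

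Among the VEGF ligands, Vegfa, which signals through Kdr and Flt1, had a log2 fold change of -0.07 ± 0.07 (limma adjusted p = 0.732), and all 6 of its probes were below 0. Pgf, a ligand of Flt1, stood at -0.13 ± 0.25 (limma adjusted p = 0.887). Vegfd, a ligand mainly of the lymphatic receptor Flt4, read -3.09, -3.36 and -3.14 in water and -3.58, -3.37 and -3.45 in ethylenediamine. Its groups were apart by a narrow gap, and it differed by -0.27 ± 0.10 (log2, SE) with a limma adjusted p of 0.447. Groups did not overlap in the lower direction for 2 of the 14 ligands, Angpt1 and Vegfd, against 8.27% of all genes. Of 16 receptors and partners, 12 were measured. Their median log2 fold change was -0.07, and 8 of the 12 lay below 0, against 51.2% of all genes. By limma 0 of the 12 passed an unadjusted p of 0.05, where 4.97% of all genes were lower and 5.39% higher. Nrp1, the neuropilin co-receptor of VEGF, was nearest to that threshold, at 0.19 ± 0.08 (limma adjusted p = 0.486). Its groups did not overlap in the higher direction, which 9.20% of all genes showed. Procr, the endothelial protein C receptor, followed at -0.16 ± 0.09. Procr stood at -0.0015 within slide 1 and with the slide as a block, and at -0.0191 with the mean of kept probes. The receptor phosphatase gene Ptprb had no matched probe.

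Of 20 other endothelial genes, 16 were measured, and before adjustment limma put 1 lower and 0 higher at p under 0.05. By that p 4.97% of all genes were lower and 5.39% higher. Of these 16 genes 10 lay above 0 and 6 below, where 51.2% of all genes lay below 0. Their median log2 fold change was 0.05, which turned to -0.02 with the mean of kept probes. The 1 lower gene was Igfbp3, which encodes an IGF-binding protein and is also made by other cells. It read 6.15, 6.22 and 6.37 in water and 5.62, 6.05 and 5.51 in ethylenediamine, which differ by -0.52 ± 0.15 (log2, SE; limma adjusted p = 0.379). All 3 of its probes gave differences from -0.56 to -0.52. The tight junction gene Cldn5 stood at -0.15 ± 0.11, the adhesion gene Icam2 at -0.26 ± 0.14 and the nitric oxide synthase Nos3 at 0.03 ± 0.12, and none of these passed. Igfbp3 is not the only gene of this list that other cells make, since the list also holds the general cell junction genes Ctnnb1, Ctnnd1 and Jup. The part of other cells was not tested, so the list median and the counts need not be those of endothelium alone.

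Of 14 endothelial transcription factors, all were measured, and 0 passed an unadjusted p of 0.05 by limma. By that p 4.97% of all genes were lower and 5.39% higher. The median log2 fold change of these factors was -0.02. It turned to 0.02 with normexp background and within slide 1 and to 0.03 without ethylenediamine replicate 3. The ETS factor Erg stood at -0.05 ± 0.07 and Sox17, a factor of arterial endothelium, at 0.11 ± 0.17. Within slide 1 Sox17 stood at 0.44. The smallest p belonged to Hhex (-0.14 ± 0.08) and Tal1 (0.08 ± 0.06). Among 9 arterial and Notch genes the median was 0.07. Before adjustment limma put 1 of them higher and 0 lower at p under 0.05, where 5.39% of all genes were higher. That gene was Gja4, which encodes the arterial gap junction protein, a connexin, at -0.75, -0.91 and -0.96 in water and -0.56, -0.59 and -0.73 in ethylenediamine, which differ by 0.25 ± 0.08 (log2, SE; limma adjusted p = 0.411). The receptor Notch4 stood at 0.16 ± 0.07. Like Gja4 it had groups that did not overlap in the higher direction, which 9.20% of all genes showed.

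Of 5 activation genes 2 were measured, Vcam1 at -0.18 ± 0.19 and Icam1 at 0.07 ± 0.12. Vcam1 stood at -0.03 without ethylenediamine replicate 1 and at -0.49 within slide 1 (limma adjusted p = 0.617). Of 4 lymphatic genes 3 were measured. Limma put 1 higher at p under 0.05 before adjustment, where 5.39% of all genes were higher. This was Ccl21, a chemokine of lymphatic endothelium and lymphoid tissue, at 1.02 ± 0.34 with overlapping groups (limma adjusted p = 0.411), and Pdpn, which podocytes also make, stood at -0.14 ± 0.08. The median of the 3 lymphatic genes, 0.14, turned to -0.16 within slide 1 and to -0.04 without ethylenediamine replicate 2.

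Markers of the cells next to endothelium were read on the same arrays. Of 9 genes of mural cells, the smooth muscle cells and pericytes around vessels, 8 were measured, all 8 lay above 0 on the log2 scale, and limma put 4 higher and 0 lower at p under 0.05 before adjustment, with 0 after it. Of all genes 5.39% were higher by that p and 51.2% lay below 0. The median of the mural genes was 0.27, and it kept its sign under all 19 alternative settings. The contractile genes Tagln and Acta2 stood at 0.83 ± 0.10 (limma adjusted p = 0.209) and 0.41 ± 0.09 (limma adjusted p = 0.329). The list medians relative to water were 0.36, 0.37 and 0.18 on ethylenediamine replicates 1 to 3, against -0.11 to 0.10 on the water arrays.

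On ethylenediamine replicate 3, where the endothelial median was -0.24, the median was -0.19 for the 12 receptors and partners, -0.14 for the 14 transcription factors, -0.04 for the 16 other endothelial genes, -0.07 for the 14 ligands, -0.01 for the 2 activation genes, -0.18 for 8 podocyte genes and -0.18 for 6 leukocyte and platelet genes. It lay above 0 for the 9 arterial and Notch genes, at 0.03, and for the 3 lymphatic genes, at 0.08. Podocyte genes had been as low on water replicate 1, at -0.20. Of the 8 podocyte genes 7 were below 0 between groups, against 51.2% of all genes. By limma 0 of the 8 passed an unadjusted p of 0.05, where 4.97% of all genes were lower and 5.39% higher. Nphs1 (nephrin) stood at -0.16 ± 0.10 and Magi2 at -0.21 ± 0.14, the latter well above background on 2 of 3 ethylenediamine arrays. Among leukocyte genes, Cd74, of antigen presentation, stood at -0.49 ± 0.20 and Ptprc (CD45) at -0.07 ± 0.13. The groups of Cd74 did not overlap in the lower direction, which 8.27% of all genes showed. The part of any of these cells in the endothelial values was not tested.

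All 7 cortical tubule genes were measured, with list medians from -0.05 to 0.015 over the 6 arrays. Their median log2 fold change was 0.00, which turned to -0.03 under median and quantile scaling and to -0.08 with the mean of kept probes. Single genes ran from -0.35 to 0.25, with 4 of the 7 above 0 and 3 below. They include the proximal tubule phosphate carrier Slc34a1 at 0.00 ± 0.06, which turned to -0.03 under median and quantile scaling, the endocytic receptor Lrp2 at -0.19 ± 0.06 (limma adjusted p = 0.371) and the glucose carrier Slc5a2 at -0.14 ± 0.06 (limma adjusted p = 0.491). Lrp2 was the 1 tubule gene of 7 past an unadjusted p of 0.05 by limma, where 4.97% of all genes were lower. Groups did not overlap in the lower direction for 2 of the 7 (Lrp2 and Slc5a2), against 8.27% of all genes. In the higher direction 1 of the 7 did not overlap, against 9.20% of all genes.

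**Figure D4:**
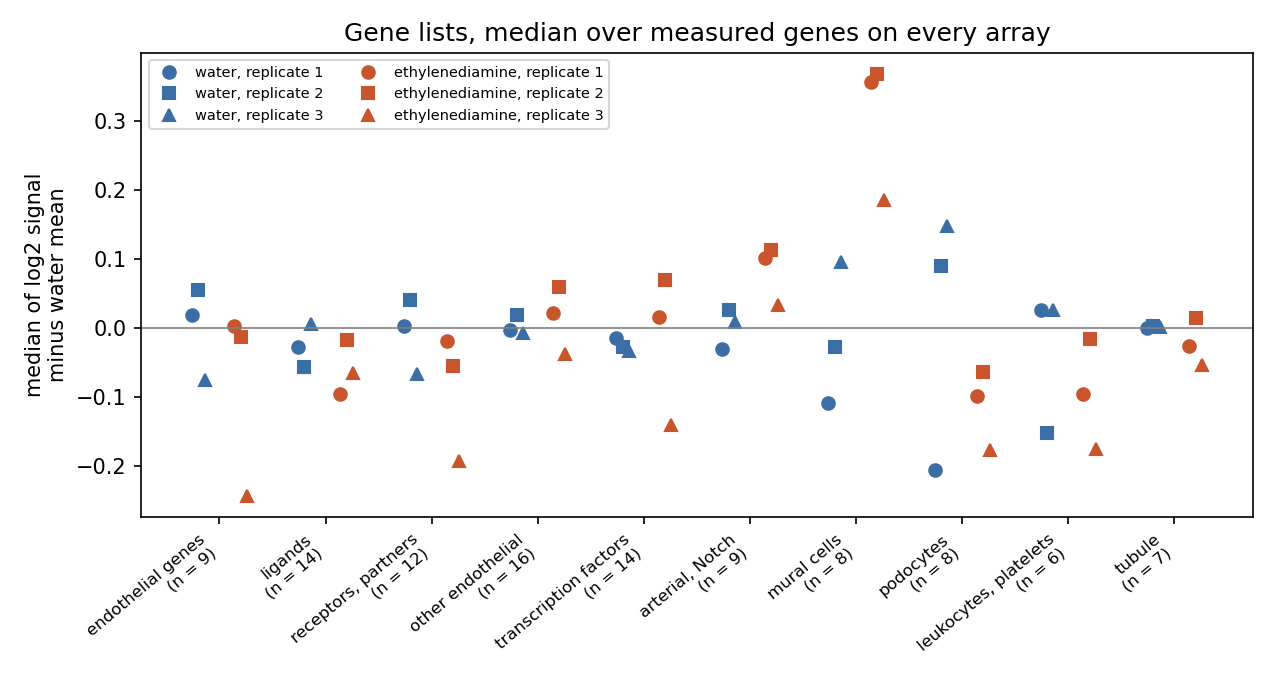
Each point is the median over the measured genes of a list of the log2 signal minus the mean of the 3 water arrays, on each of the 6 arrays, for the lists with at least 6 measured genes. The endothelial genes reach -0.24 on ethylenediamine replicate 3, and the mural genes lie above the water arrays on all 3 ethylenediamine arrays.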

How the data were processed

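Per the file headers, the deposited values are linear spot intensity from Agilent Feature Extraction 10.7.1.1, already corrected for background and spatial trend (the submitters' processing notes give 10.7), on a grid of build rn4 and with no scaling across arrays. The authors' processed table holds the same intensity divided by each array's 75th percentile (100% of the probes used lay within 2% of that) and served as an alternative. Here log2 intensity minus the array's 75th percentile was used. Control spots (1439) and 22 probes with an outlier flag were left out, and no spot was saturated. Symbols came from RefSeq accessions (GRCr8, names only), which named 28194 probes. Probes flagged by Agilent as well above background throughout either group were kept (37822, of which 19905 were named), and the brightest stood for each of 11530 genes. Groups, taken from the labels, were compared by moderated linear models (limma 3.58.1, R 4.3.3, eBayes, Benjamini-Hochberg over all genes, threshold 0.05), after the fit was tested on simulated data. The fit had 4 residual and 1.84 prior degrees of freedom, and the number of arrays limits the precision.

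The members and lists were chosen with earlier results of these data known. All members were named, and of each list the 2 genes with the smallest p plus a fixed set, except 1 gene that is not reported here; the order of probes and lists, and the remark on ethylenediamine replicate 3, were chosen after the values were seen. Same-numbered arrays of the groups did not deviate together (correlations of -0.003, 0.022 and -0.008), so no pairing was used. The files hold no mean signal column, so normexp (offset 50) used the median signal.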

Additional observations from a re-analysis of the deposited data

How the results depend on the processing

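Under all 19 alternative settings 0 of the 9 endothelial genes passed an adjusted p of 0.05 by limma. Pecam1, Kdr, Tek and Eng kept their sign in all 19. Signs turned for Flt1, Cdh5, Tie1, Emcn and Plvap, which lay between -0.0967 (Plvap) and 0.0525 (Flt1) in the fit as reported. Tie1 stood at -0.02 with normexp background (-0.0229), at -0.02 with median scaling (-0.0201) and at -0.0386 with the mean of kept probes, and ran from -0.14 to 0.13 when 1 array was left out. Cdh5 stood at -0.0145 with median scaling, where 8 of 9 genes were below 0, and ran from -0.12 to 0.12 without 1 array. Both ways of handling the slide (a block, or slide 1 alone) put Emcn at 0.0178 and Plvap at 0.16. Without 1 array Emcn ran from -0.14 to 0.0021, Plvap from -0.23 to 0.10 and Flt1 from -0.0431 to 0.15.

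Of the genes named beside them, Slc34a1 stood at -0.0269 with median scaling, -0.0324 with quantile scaling, -0.0338 with the mean of kept probes and -0.0511 under both ways of handling the slide. Both ways of handling the slide put Sox17 at 0.4351. With the mean of kept probes Pgf stood at 0.0353, Tal1 at -0.0327 and Erg at 0.0282. Without 1 array the ranges were Slc34a1 from -0.0259 to 0.0353, Pgf from -0.3655 to 0.1339, Nos3 from -0.0468 to 0.1398, Ptprc from -0.1986 to 0.0351, Sox17 from -0.0465 to 0.2570 and Icam1 from -0.0264 to 0.1920.

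The count of all genes past the threshold, 0 in the fit as reported, was 4 probes with every probe on its own, 10 with the slide as a block, 6 within slide 1, 1 with an intensity trend and 0 to 1 when 1 array was left out (1 without water replicate 2, 1 without ethylenediamine replicate 1), and none of these was one of the 9 genes. With the replicate block the median log2 fold change of the endothelial genes stayed at -0.0967 and 0 passed; the numbers do not pair the animals, and the block changed no call among the 9 genes.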
